A study of Mus musculus with 12 samples.

Results

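Heart RNA of mice after myocardial ischemia/reperfusion (I/R) was compared with heart RNA of sham-operated mice, both kept on normal drinking water. The comparison took the 3 I/R libraries against the 3 Sham libraries exactly as labelled, 6 of the 12 libraries of the study, and covered all 13001 genes that passed the filter on low values. All the mice had the genotype WT. In the I/R group the left anterior descending coronary artery, which feeds the front wall of the left ventricle, was tied for 45 min and then released for 24 h. The Sham group had the same thoracotomy under isoflurane, without the occlusion. The other 6 libraries came from the same 2 operations on vitamin B12 in the drinking water and entered the filter on low values, the estimate of the spread and the alternatives and the interaction that name them. The labels name the tissue as heart and give no strain, sex, age or region of the heart. They do not say whether a library came from 1 mouse or from pooled mice, so p-values measure the spread between these libraries.

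Reperfusion returns oxygen to muscle that has been starved of it, and the returning flow itself adds oxidative and calcium stress to the injured cells. Dying cardiomyocytes release signals that draw in neutrophils and then monocytes, while surviving cells switch on chaperones and reduce the burning of fatty acids, the main fuel of the resting heart. Heart tissue sequenced in bulk mixes all of these cells, so fewer cells of a type and less RNA per cell cannot be told apart.

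The labelled tissue was checked against markers of heart muscle. The cardiac troponin T gene Tnnt2 stood at 5279, 5798 and 8398 FPKM in the Sham libraries and 5415, 5169 and 6034 FPKM in the I/R libraries, and the α-myosin gene Myh6, the main motor protein of the adult mouse ventricle, at 8648, 7004 and 8521 FPKM in the Sham libraries and 4528, 4484 and 7020.2 FPKM in the I/R libraries. FPKM, the deposited unit, counts fragments per length of transcript and per size of library, and both genes were among the most abundant of heart muscle in every library. Markers of neighbouring tissues were low: of 8 lung epithelium markers 5 were listed at 0 in all 6 libraries and only Hopx, which heart muscle also expresses, passed the filter.

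Of the 6 libraries, 2 (Sham 3 and I/R 3) stood apart from their groups. On the first principal component, which held 48% of the variance of log2(FPKM + 1), Sham 1 and 2 lay at -31.74 and -23.38 and I/R 1 and 2 at 41.06 and 34.59. I/R 3 lay at -19.41, beside Sham 1 and 2, and Sham 3 at -1.12, between the groups. The second component, with 23.6% of the variance, set Sham 3 at -40.43 away from all the others. Across genes, I/R 3 correlated more closely with Sham 2 (r = 0.982) than with I/R 1 or I/R 2 (r = 0.953 and 0.957). Genes are not independent replicates, so these correlations describe the libraries only.

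The same 2 libraries stood out in cell-type markers. The 23 neutrophil markers summed to 67.1, 80.2 and 350 FPKM in the Sham libraries and 1700, 1820 and 110 FPKM in the I/R libraries. The sum was over 1500 FPKM in I/R 1 and 2 alone, I/R 3 lay near Sham 1 and 2, and Sham 3 lay between. The 15 atrial cardiomyocyte markers summed to 375, 588 and 3220 FPKM in the Sham libraries and 633, 231 and 766 FPKM in the I/R libraries, high in Sham 3 alone, and that sum was mostly Nppa. The 8 erythroid markers summed to 8400, 13200 and 3070 FPKM in the Sham libraries and 6620, 6330 and 8420 FPKM in the I/R libraries, lowest in Sham 3. Of 700 genes that differed by 1 or more on the log2 scale between the pairs Sham 1 and 2 and I/R 1 and 2, I/R 3 lay nearer to the Sham pair in 607 and Sham 3 nearer to the I/R pair in 260. The labels were kept as given, every result below shows each library, and values without Sham 3, I/R 3 or both stand beside the list medians that they move by over 1.5 times and beside the genes that rest on them. Those 2 libraries were singled out by their expression, which by itself widens the difference between the rest. Values without them, adjusted p included, are thus a description and not a test.

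**Figure D1:**
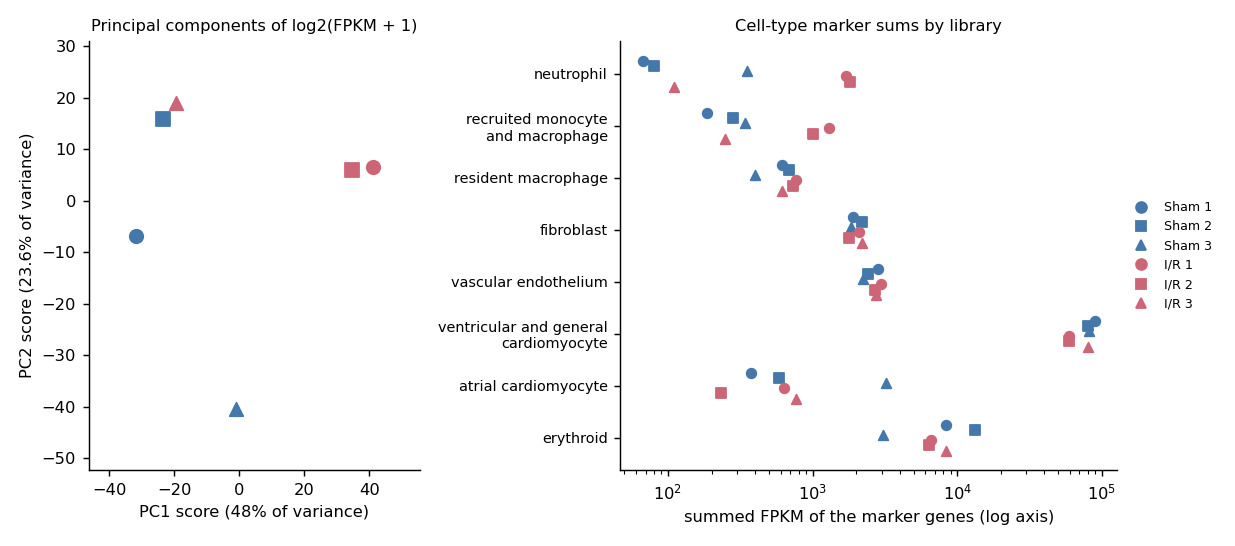
Left, scores of the 6 libraries on the first 2 principal components of log2(FPKM + 1). Right, summed FPKM of cell-type marker lists on a log axis, 1 point per library, Sham in blue and I/R in red. I/R 3 lies beside Sham 2 on the left, and on the right its neutrophil sum of 110 FPKM lies far below the 1700 and 1820 FPKM of I/R 1 and 2.

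The deposited table holds no counts, but its low values step by single fragments, and from these steps the libraries were estimated to hold 24.75 to 29 M fragments (M, mega). Between 85% and 90.1% of the low values came out whole to within 0.15 fragments. Between 11993 and 12612 genes had an FPKM of 1 or more in a library. Differences below are I/R minus Sham on the log2(FPKM + 1) scale, which understates the change of genes with low FPKM, and each is printed with its standard error (SE) from limma. A gene passed the filter with at least 1 FPKM in at least 3 of the 12 libraries. Of 12991 genes 886 passed only with the help of I/R libraries, counted over both kinds of water, and for these the filter itself favours a higher level in I/R. Lists with several such members are marked below, and counts and medians over them are a description. P-values are two-sided and adjusted by Benjamini-Hochberg over all 13001 genes.

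All 3 I/R libraries lay above all 3 Sham libraries for 53.2% of interferon-stimulated genes, 45.2% of genes of the cell cycle and DNA replication and 37.5% of genes of cell death, beside 18.8% of all genes. In that order, 2 of 47, 10 of 42 and 3 of 40 members passed the filter only with I/R libraries. The filter favours a higher level for those, so the shares are a description. The I/R libraries lay below for 47.4% of genes of fatty acid uptake and oxidation and 31.7% of nuclear genes of the respiratory chain, beside 3.6% of all genes. Neutrophil, chemokine and acute-phase genes were far higher in I/R 1 and 2 than in Sham 1 and 2, and few of them separated all 6 libraries. No single gene passed the adjusted threshold in limma: 0 of 13001 genes (0%) were called at an adjusted p under 0.05, and the smallest adjusted p was 0.342. Without adjustment, 1516 genes reached a p under 0.05, of which 1381 (10.6% of the genes tested) were higher in I/R and 135 (1.04%) lower. Groups that did not overlap were found in 2439 genes (18.8%) with I/R above and 468 (3.6%) with I/R below.

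The excess of higher over lower genes depended on the scaling between libraries. The median gene was 0.13 higher in I/R as deposited, and 69.1% of all genes had a positive difference. Counts of signs below are read against that share, and counts at an unadjusted p under 0.05 against 10.6% higher and 1.04% lower. After median-ratio scaling, which sets the typical gene level, the median difference was 0.004, and of 1205 genes at an unadjusted p under 0.05 the higher ones made up 50.9% in place of 91.1%. Under that scaling 1261 genes (9.7%) lay above and 1332 (10.2%) below without overlap. A difference near 0.13 is thus the level of the typical gene, and differences are read against it. The count at an unadjusted p under 0.05 fell to 696 without I/R 1, 702 without I/R 2 and 766 without Sham 1, and was 2204 without I/R 3 and 2245 without the first I/R library on B12. Leaving out Sham 3 and I/R 3 together, 56 genes (0.431%) passed the adjusted threshold, 52 higher and 4 lower, and for 11 of these all 6 libraries were also without overlap. That count is a description, as the libraries left out were chosen by their expression. Fits that gave each of the 12 libraries a weight called 4411 genes in one procedure and 3052 in another, with Sham 3 at a weight of 0.443, I/R 3 at 0.466 and I/R 2 at 9.831 in the first. The first procedure stopped before it converged, and I/R 2 carried most of the weight of its group.

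**Figure D2:**
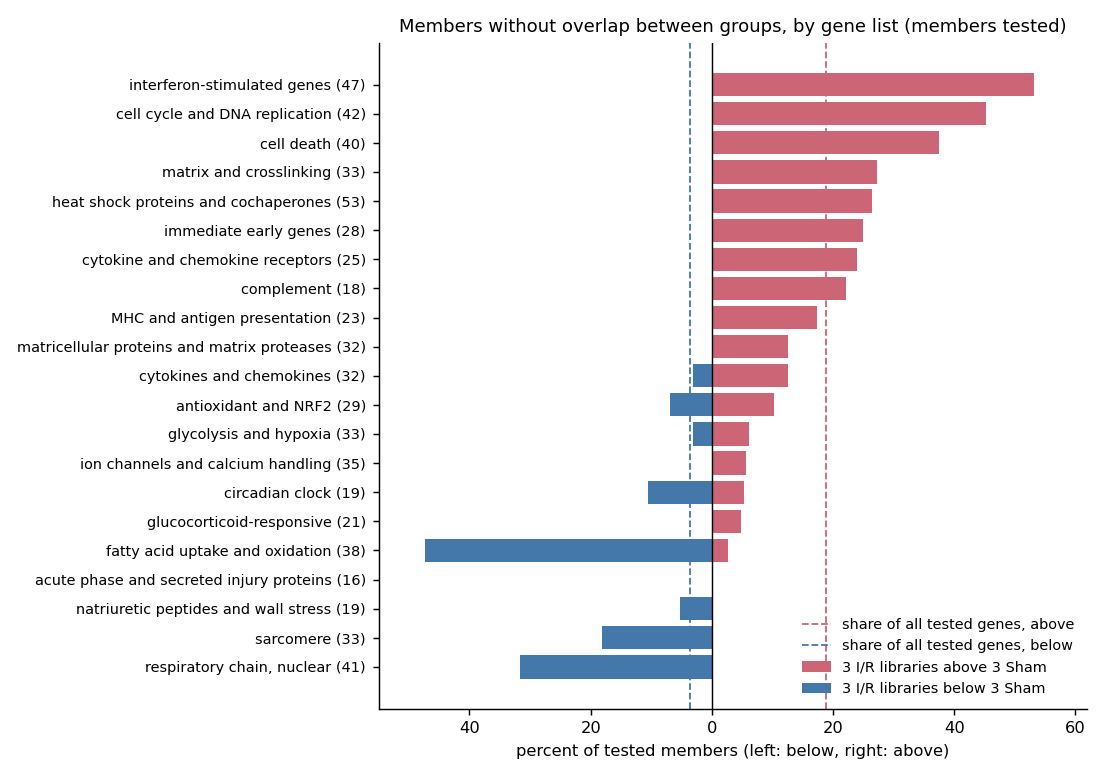
Percent of tested members of each pathway list whose 3 I/R libraries lay above (red, right) or below (blue, left) the 3 Sham libraries, with the number of members tested in brackets. Dashed lines mark the shares among all tested genes, 18.8% above and 3.6% below. Interferon-stimulated genes reach 53.2% above and fatty acid genes 47.4% below.

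The gene with the smallest p was Dnaja1 (chr4:40722150-40737149 on GRCm38), which encodes an HSP40 cochaperone that hands unfolded proteins to HSP70. It stood at 17.5, 19.2 and 15.9 FPKM in the Sham libraries and 37.7, 31.3 and 35.6 FPKM in the I/R libraries. All 3 I/R libraries were near 35 FPKM and all 3 Sham libraries near 17 FPKM, I/R 3 and Sham 3 included. The means were 17.6 ± 1.63 FPKM in Sham and 34.9 ± 3.3 FPKM in I/R (mean ± SD, n = 3). The difference was 0.95 (SE 0.14), with an unadjusted p of 3.1e-05 and an adjusted p of 0.342 in limma, and it ranged from 0.80 to 1.03 over the alternative settings. Without Sham 3 and I/R 3 it was 0.87.

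Of the 53 heat shock proteins and cochaperones tested, 40 had a positive difference, beside 69.1% of all genes. At an unadjusted p under 0.05 9 (17%) were higher, beside 10.6% of all genes, and none lower. Above without overlap lay 14 (26.4% against 18.8% of all genes). The median of the list was 0.17 against 0.13 for all genes, and 0.28 without Sham 3 and I/R 3. With median-ratio scaling it was 0.01, with 28 of 53 positive and 10 above without overlap.

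Hspa5 encodes BiP, the HSP70 of the endoplasmic reticulum and the sensor of its folding load, and stood at 116, 107 and 126 FPKM in the Sham libraries and 219, 260.2 and 133 FPKM in the I/R libraries. Hsp90b1, which encodes its HSP90 (GRP94), stood at 77.1, 78.4 and 71.2 FPKM in the Sham libraries and 135, 161 and 98.8 FPKM in the I/R libraries. Dnajc3, an inhibitor of the stress kinase PERK and cochaperone of BiP, stood at 6.97, 8.13 and 7.75 FPKM in the Sham libraries and 14.7, 16.7 and 10.4 FPKM in the I/R libraries. In all 3 genes I/R 1 and 2 were highest, I/R 3 was the I/R library nearest to Sham, and Sham 3 lay with its group. The differences were 0.75 (SE 0.24) for Hspa5, 0.76 (SE 0.17) for Hsp90b1 and 0.77 (SE 0.16) for Dnajc3. Without Sham 3 and I/R 3 Dnajc3 was 0.96 higher with an adjusted p of 0.046 in limma.

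Other chaperones of the endoplasmic reticulum, where secreted proteins fold, were Dnajb11, which delivers clients to BiP, at 23.7, 23 and 24.3 against 44.1, 45.5 and 27.7 FPKM, and Hspa13 at 2.57, 3.24 and 3.14 against 5, 5.41 and 4.24 FPKM. The rules for the smallest p and the largest increases also named Manf, Sdf2l1 and Sec11c, which belong to no list here. Manf, a neurotrophic factor released when folding in that compartment is overloaded, stood at 30.9, 40.3 and 39.6 FPKM in the Sham libraries and 133, 172 and 44.1 FPKM in the I/R libraries, a difference of 1.43 (SE 0.42). Sdf2l1, a partner of BiP and Dnajb11, stood at 7.31, 7.65 and 6.25 FPKM in the Sham libraries and 30.4, 35.1 and 8.41 FPKM in the I/R libraries, a difference of 1.45 (SE 0.52). In both, I/R 1 and 2 were far above the Sham libraries and I/R 3 only slightly above them. Sec11c, a subunit of the signal peptidase that trims proteins entering the compartment, stood at 12.9, 14.6 and 13 against 19.8, 26.5 and 19 FPKM.

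Cytosolic chaperones without overlap were the HSP90 gene Hsp90aa1 at 21.5, 16 and 25.3 against 44.4, 37.5 and 29.8 FPKM, the constitutive HSP70 gene Hspa8 at 617, 551 and 531 against 759.6, 741 and 636 FPKM and the cochaperone Dnajb1 at 5.68, 7.62 and 7.06 against 11.3, 10.6 and 11.1 FPKM. Serpinh1, which encodes the collagen chaperone HSP47, stood at 128, 117 and 86 against 243, 221 and 134 FPKM. The stress-inducible HSP70 genes did not separate the groups: Hspa1a stood at 1.71, 1.65 and 6.29 against 4.97, 3.77 and 3.85 FPKM and Hspa1b at 1.63, 1.87 and 4.72 against 7.89, 5 and 4.4 FPKM, with Sham 3 the highest library for Hspa1a and within the I/R range for Hspa1b. They are near-identical copies, so reads may have been split between them. Fkbp5, a glucocorticoid-induced cochaperone, stood at 13, 6.61 and 59.4 against 25.9, 17.4 and 5.74 FPKM and was highest in Sham 3.

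Promoter windows from RefSeq (GRCm38.p6, 250 bases before to 50 after the transcript start) were searched on both strands for the endoplasmic reticulum stress element, CCAAT and CCACG separated by 9 bases of any kind. The element is the textbook binding site of the unfolded protein response. It was found in 39 of 32851 windows (0.119%), which belong to 37 of 27025 genes (0.137%). In the heat shock list, 44 members had a window and 3 held the element: Hspa5, Hsp90b1 and Dnajc3, all 3 among the 11 members with a window that lay above without overlap. Their windows are shown, 5′ to 3′ along each gene, because these 3 members hold the element. Capitals mark the element, which Hsp90b1 holds on both strands, and a match describes the letters only.
Hspa5 (chr2:34771840-34772139, plus strand): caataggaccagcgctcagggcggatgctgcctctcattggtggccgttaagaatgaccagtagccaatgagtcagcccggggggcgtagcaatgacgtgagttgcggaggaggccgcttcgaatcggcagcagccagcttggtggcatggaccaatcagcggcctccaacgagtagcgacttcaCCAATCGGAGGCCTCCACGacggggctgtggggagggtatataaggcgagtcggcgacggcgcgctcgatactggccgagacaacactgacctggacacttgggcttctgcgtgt
Hsp90b1 (chr10:86705395-86705694, minus strand): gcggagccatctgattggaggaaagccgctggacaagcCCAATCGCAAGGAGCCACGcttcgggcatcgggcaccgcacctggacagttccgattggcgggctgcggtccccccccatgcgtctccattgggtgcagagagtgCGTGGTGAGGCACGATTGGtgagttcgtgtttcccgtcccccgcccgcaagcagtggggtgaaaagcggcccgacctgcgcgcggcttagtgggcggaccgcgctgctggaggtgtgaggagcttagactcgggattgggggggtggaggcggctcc
Dnajc3 (chr14:118937682-118937981, plus strand): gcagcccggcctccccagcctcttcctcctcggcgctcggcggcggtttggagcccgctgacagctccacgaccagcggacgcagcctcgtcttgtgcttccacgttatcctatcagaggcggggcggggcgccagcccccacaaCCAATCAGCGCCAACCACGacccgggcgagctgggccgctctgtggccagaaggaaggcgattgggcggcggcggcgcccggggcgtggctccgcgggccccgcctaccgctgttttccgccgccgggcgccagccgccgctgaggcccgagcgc

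Interferon-stimulated genes were the list with the largest share of members above Sham. Cells switch these genes on when interferon receptors are bound, and many encode antiviral proteins. Of 47 tested members 46 had a positive difference, 28 were higher at an unadjusted p under 0.05, and 25 (53.2%) lay above without overlap. The median was 0.61, and 0.47 with 20 members above under median-ratio scaling. It was 0.41 without Sham 3, which held the lowest level of many members, and 0.65 without I/R 3.

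Usp18 (chr6:121245906-121270917 on GRCm38) encodes the protease that removes ISG15 from proteins and damps the interferon receptor. It stood at 2.51, 3.29 and 2.52 FPKM in the Sham libraries and 6.5, 6.09 and 4.71 FPKM in the I/R libraries, a difference of 0.84 (SE 0.17) with an unadjusted p of 0.00048. Rtp4, a transporter of G-protein-coupled receptors and interferon target, stood at 10.4, 10.7 and 6.7 FPKM in the Sham libraries and 20.4, 20.3 and 14.7 FPKM in the I/R libraries. Zbp1, a sensor of nucleic acids that can start necroptosis, stood at 1.04, 3.09 and 2.19 FPKM in the Sham libraries and 10.4, 11.6 and 4.17 FPKM in the I/R libraries. In each of the 3 genes I/R 3 was the lowest I/R library and still above all Sham libraries. The difference of Zbp1 was 1.60 (SE 0.35), and without Sham 3 and I/R 3 it was 2.05 with an adjusted p of 0.048 in limma.

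Isg15, the ubiquitin-like protein that Usp18 removes, stood at 12.3, 19.2 and 8.71 FPKM in the Sham libraries and 36.7, 35.5 and 25.2 FPKM in the I/R libraries. Irf7, the transcription factor that amplifies interferon production, stood at 11.7, 15.1 and 8.07 FPKM in the Sham libraries and 21.5, 23.4 and 19.5 FPKM in the I/R libraries. The antiviral genes Oas2 and Ifit1 stood at 1.9, 1.77 and 1.29 against 4.21, 4.81 and 2.9 FPKM and at 3.17, 2.68 and 1.48 against 5.21, 5.8 and 4.4 FPKM, and Eif2ak2, the kinase PKR, at 2.02, 2.77 and 1.96 against 4.17, 4.29 and 3.97 FPKM. Sham 3 was the lowest library for all 5 of these genes, and I/R 3 lay above the highest Sham library in each. The secreted glycoprotein Lgals3bp, at 31.7, 33.3 and 27.8 against 55.4, 50.4 and 43.9 FPKM, had an unadjusted p of 0.0002. Trim30d stood at 0.95, 1.09 and 0.55 against 3, 2.95 and 2.16 FPKM, and reads may be shared with its close relatives.

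In some members the difference rested mainly on a low Sham 3. Ifit3 stood at 13, 15.7 and 6.49 against 15.7, 17.5 and 18.9 FPKM and Bst2, the tether that holds budding virus, at 53.4, 70.8 and 26.8 against 74.5, 81.5 and 90.9 FPKM, and without Sham 3 and I/R 3 their differences were 0.20 and 0.34 against 0.61 and 0.80 with all 6. Ifit3 has a near-identical neighbour, Ifit3b. The list member with the lowest difference was Mx2, at 0.86, 1.4 and 0.68 against 0.97, 1.07 and 0.69 FPKM. The 10 markers of dendritic cells, which include a source of interferon, summed to 10.3, 19.4 and 10.8 FPKM in the Sham libraries and 19.5, 19.2 and 20 FPKM in the I/R libraries, lowest in Sham 1 and Sham 3, and the part of these cells in the result was not tested.

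The core of the interferon-stimulated response element, searched in the same way as GAAA and GAAA separated by 2 bases of any kind, was found in 1131 of 32851 windows (3.44%), which belong to 1079 of 27025 genes (3.99%). Of 36 list members with a window 19 (52.8%) held it, and of the 18 that lay above without overlap 10 (55.6%) did. The share in the list was thus much the same with and without the members that overlapped, and it was far above that of all genes. The windows of Isg15, which has 3 matches that overlap, and of Ifit1, which has 2 on the opposite strand, are shown as examples with the matches in capitals.
Isg15 (chr4:156200769-156201068, minus strand): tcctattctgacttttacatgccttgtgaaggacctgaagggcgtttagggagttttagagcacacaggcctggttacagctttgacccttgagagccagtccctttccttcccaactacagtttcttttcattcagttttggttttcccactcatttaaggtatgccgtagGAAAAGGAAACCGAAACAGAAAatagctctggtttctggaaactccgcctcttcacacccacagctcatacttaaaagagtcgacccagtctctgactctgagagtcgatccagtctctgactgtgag
Ifit1 (chr19:34640639-34640938, plus strand): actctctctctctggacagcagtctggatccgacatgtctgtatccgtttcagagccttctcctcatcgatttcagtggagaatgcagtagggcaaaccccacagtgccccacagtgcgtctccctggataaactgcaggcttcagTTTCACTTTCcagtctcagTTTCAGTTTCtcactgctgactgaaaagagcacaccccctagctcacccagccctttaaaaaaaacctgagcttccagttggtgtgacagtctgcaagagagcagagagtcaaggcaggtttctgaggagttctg

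Genes of the cell cycle and DNA replication were the second pathway list by that share. Of 42 tested members 39 had a positive difference, 18 were higher at an unadjusted p under 0.05 and 19 (45.2%) lay above without overlap. Of the 42 members 10 passed the filter only with I/R libraries, and the other 32 had a median of 0.47. Several of those 10, Top2a and Uhrf1 among them, also count among the 19, so the filter favours part of that share. The median of all was 0.50, and 0.39 with 12 above under median-ratio scaling. Levels were low, mostly under 10 FPKM.

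Cdk1, the kinase that drives entry into mitosis, stood at 1.72, 2.73 and 1.05 FPKM in the Sham libraries and 8.41, 3.62 and 7.15 FPKM in the I/R libraries, a difference of 1.36 (SE 0.29) with an unadjusted p of 0.00066. I/R 3 was near I/R 1 here, and I/R 2 was the lowest of its group. The replicative helicase subunits Mcm3 and Mcm4 stood at 5.16, 6.18 and 4.04 against 14, 8.84 and 7.29 FPKM and at 2.64, 2.89 and 2.57 against 6.44, 4.83 and 3.42 FPKM, and Pcna, the sliding clamp of DNA polymerase, at 19.2, 22.3 and 23.2 against 42.1, 32.4 and 27.3 FPKM. Top2a, which untangles chromosomes, stood at 0.48, 2.04 and 0.4 against 4.52, 2.12 and 2.2 FPKM, where I/R 2 and 3 barely exceeded Sham 2. Uhrf1, which copies DNA methylation to new strands, stood at 0.77, 1.04 and 0.61 against 4.65, 2.6 and 1.19 FPKM. The lowest difference was that of the centromere histone Cenpa, at 26, 37.5 and 24.8 against 21.6, 19.7 and 29.2 FPKM. I/R 1 was the highest library for all of these genes except Cenpa, and I/R 3 stayed above the Sham libraries in each of them except Cenpa.

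Genes of cell death were the next pathway list by that share. Of 40 tested members 35 had a positive difference, 11 were higher at an unadjusted p under 0.05 and 15 (37.5%) lay above without overlap. Of the 40 members 3 passed the filter only with I/R libraries. The median was 0.32, 0.49 without I/R 3 and 0.18 with 9 above under median-ratio scaling. Mlkl, which opens the membrane in necroptosis, stood at 2.24, 2.04 and 1.91 FPKM in the Sham libraries and 5.57, 5.28 and 4.14 FPKM in the I/R libraries. Pycard, the adaptor of the inflammasome, stood at 6.46, 8.82 and 6.21 FPKM in the Sham libraries and 15.3, 12.7 and 9.91 FPKM in the I/R libraries. Both kept I/R 3 above the highest Sham library, though in each it was the lowest I/R library.

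Casp4, the sensor of lipopolysaccharide in the cytosol, stood at 1.27, 1.97 and 1.65 against 7.19, 9.28 and 2.58 FPKM, and Casp12 at 2.73, 3.17 and 2.23 against 5.45, 5.37 and 4.5 FPKM. Bcl2a1b, a survival gene of leukocytes with close copies, stood at 0.38, 4.07 and 3.14 against 14.7, 14.3 and 3.5 FPKM and overlapped, with I/R 3 within the Sham range. Bcl2l1, which encodes the survival protein BCL-XL, had the lowest difference of the list, at 34, 19.2 and 54.2 against 33.4, 33 and 17.6 FPKM, highest in Sham 3. Many of the inflammasome and caspase genes of this list are expressed in macrophages and neutrophils as well as in heart muscle, and the part of those cells was not tested. Their marker sums are given with the libraries, for neutrophils, and with the leukocyte and heart muscle genes.

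**Figure D3:**
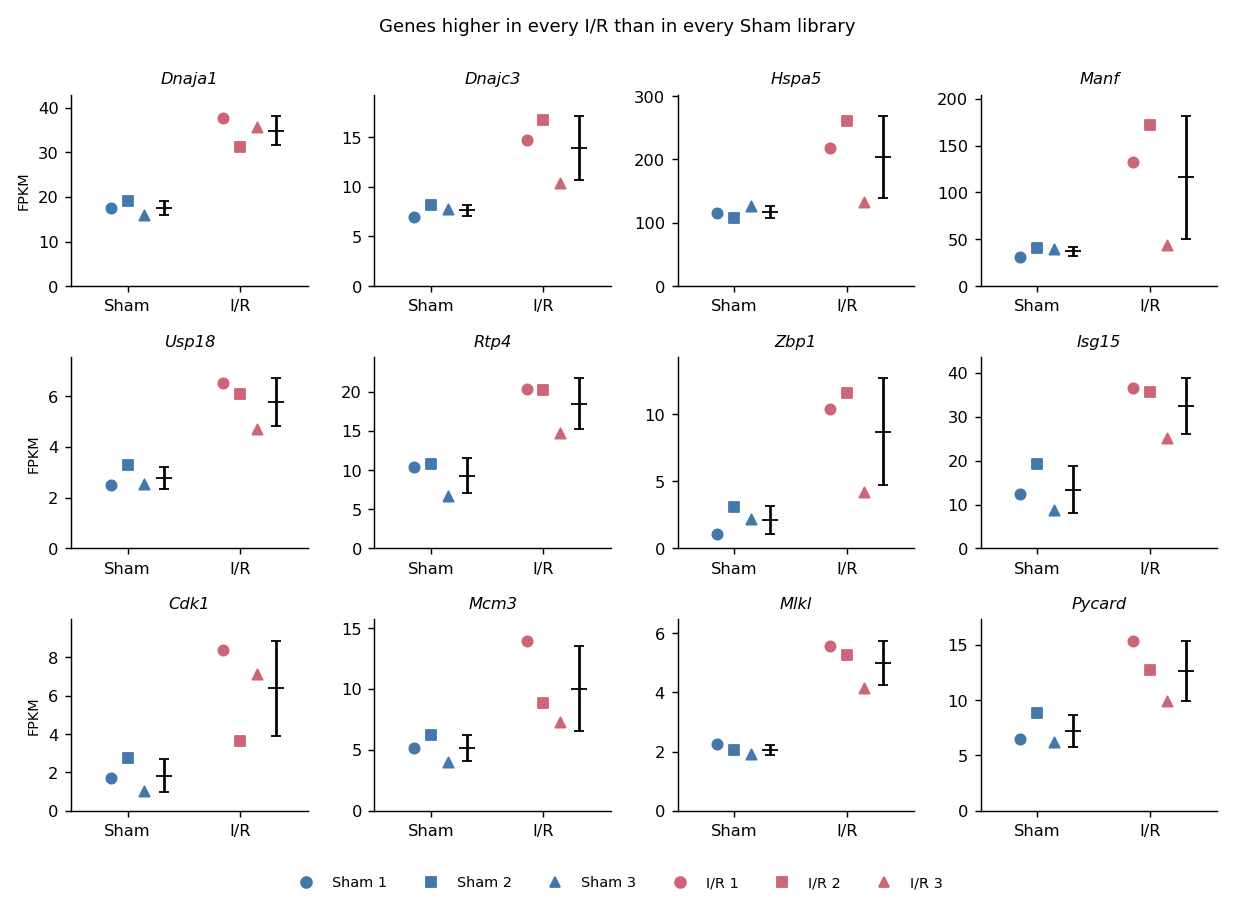
FPKM of 12 genes in each library, with the mean and SD (n = 3) of each group beside the points. In every panel the 3 I/R libraries lie above the 3 Sham libraries. I/R 3 (red triangle) is the lowest I/R library in most panels, with Dnaja1 and Cdk1 as exceptions.

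Neutrophil genes differed most in size. S100a8 and S100a9 encode the 2 chains of calprotectin, the main cytosolic protein of neutrophils. S100a8 stood at 1.91, 3.08 and 15.9 FPKM in the Sham libraries and 369, 381 and 3.58 FPKM in the I/R libraries, and S100a9 at 3.32, 5.68 and 36.6 FPKM in the Sham libraries and 706, 681 and 9.1 FPKM in the I/R libraries. I/R 1 and 2 were far above all other libraries, and I/R 3 lay below Sham 3 in both genes. The differences were 3.88 (SE 1.65) and 4.04 (SE 1.73), with unadjusted p of 0.038 and 0.038. Without Sham 3 and I/R 3 they were 6.77 and 7.01, with adjusted p of 0.067 and 0.079 in limma.

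Retnlg, a resistin-like hormone of neutrophils, stood at 0.43, 0.98 and 5.65 FPKM in the Sham libraries and 106, 96.7 and 1.08 FPKM in the I/R libraries. The chemokine receptor Cxcr2, which guides neutrophils to tissue, stood at 0.09, 0.06 and 0.74 FPKM in the Sham libraries and 12, 8.4 and 0.11 FPKM in the I/R libraries. The gelatinase gene Mmp9, stored in neutrophil granules, stood at 0.57, 0.84 and 2.35 FPKM in the Sham libraries and 23.1, 19.5 and 0.48 FPKM in the I/R libraries. Only I/R 1 and 2 were high in these 3 genes. Wfdc21 stood at 0, 0 and 0.67 FPKM in the Sham libraries and 20.4, 22.3 and 0.47 FPKM in the I/R libraries, listed at 0 in Sham 1 and 2.

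Of 23 neutrophil markers 17 were tested, and 12 of these, Cxcr2, Mmp9, Retnlg and Wfdc21 among them, passed the filter only with I/R libraries. The filter favours a positive sign for those 12, so no count of signs is given, and the other 5 had a median of 2.19. The 1 marker that lay above without overlap was G0s2. G0s2, an inhibitor of fat breakdown, is also expressed in heart muscle and stood at 52.5, 63 and 57.4 against 67.1, 74.2 and 88.1 FPKM. The list median was 2.03, from 1.28 to 3.70 over the alternative settings. It was 3.13 without I/R 3 and 2.37 without Sham 3. Of the 16 markers that differed by 1 or more between the pairs, I/R 3 lay nearer to Sham 1 and 2 in all 16 and Sham 3 nearer to I/R 1 and 2 in 2.

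Chemokines, the secreted signals that attract leukocytes, followed the neutrophil genes. Ccl2, which attracts monocytes through the receptor CCR2, stood at 1.53, 2.88 and 30.8 FPKM in the Sham libraries and 170.2, 139 and 4.67 FPKM in the I/R libraries. Ccl7, with the same receptor, stood at 0.33, 2.57 and 21.3 FPKM in the Sham libraries and 124, 135 and 5.06 FPKM in the I/R libraries. Cxcl5, which attracts neutrophils through CXCR2, stood at 0.18, 0.22 and 8.1 FPKM in the Sham libraries and 78.5, 92.5 and 0.28 FPKM in the I/R libraries. I/R 1 and 2 were highest in all 3, Sham 3 came next and I/R 3 lay below Sham 3. Without Sham 3 and I/R 3 the differences were 5.62, 5.90 and 6.17, with adjusted p of 0.031, 0.034 and 0.0098 in limma. With all 6 libraries they were 2.92 (SE 1.27), 3.31 (SE 1.26) and 3.17 (SE 1.41), and none passed the adjusted threshold.

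Cxcl3, another ligand of CXCR2, was listed at 0 in Sham 1 and 2, at 10.1 FPKM in Sham 3 and at 52.7, 55.5 and 0.05 FPKM in I/R 1, 2 and 3. The cytokine gene Il6, a driver of the acute-phase response, stood at 0, 0.1 and 1.29 FPKM in the Sham libraries and 11.8, 9.6 and 0 FPKM in the I/R libraries, at 0 in Sham 1 and I/R 3. Of 32 cytokines and chemokines tested 30 had a positive difference, 8 were higher and 1 lower at an unadjusted p under 0.05, and 4 (12.5%) lay above without overlap. That share is under the 18.8% of all genes. The median was 1.04, and 1.49 without Sham 3 and I/R 3. Of the 32 genes 14, Cxcl3, Cxcl5, Il6 and Il18 among them, passed the filter only with I/R libraries, and the other 18 had a median of 0.75.

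The 4 cytokine genes above without overlap were of other kinds. Csf1, the growth factor of macrophages, stood at 12.5, 18.3 and 16.2 FPKM in the Sham libraries and 37, 31.1 and 25.8 FPKM in the I/R libraries. Cxcl10, an interferon-induced attractant of T cells, stood at 0.46, 2.01 and 1.04 against 3.85, 5.67 and 2.93 FPKM, and Il18, which the inflammasome matures, at 0.39, 0.93 and 0.17 against 1.12, 1.18 and 1.08 FPKM. Cxcl12, the homing signal of stem cells, stood at 85.2, 82.5 and 58.9 against 106, 103 and 87 FPKM. The 1 cytokine below without overlap was Ccl27b, at 2.6, 2.5 and 2.67 FPKM in the Sham libraries and listed at 0 in all 3 I/R libraries. It belongs to a cluster of near-identical copies among which reads may be split, so its value is uncertain.

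Receptors of these signals differed by less. Of 25 tested 24 had a positive difference and 8 were higher at an unadjusted p under 0.05. Above without overlap lay 6 (24%), beside 18.8% of all genes. The median was 0.73, and 1.17 without Sham 3 and I/R 3, and 4 of the 25 passed the filter only with I/R libraries. Il1r1, the receptor of interleukin-1, stood at 2.44, 3.09 and 5.33 FPKM in the Sham libraries and 11.5, 11.4 and 4.07 FPKM in the I/R libraries, and Tnfrsf1a, a receptor of tumour necrosis factor, at 31.9, 36 and 50 FPKM in the Sham libraries and 78.5, 76.3 and 38.1 FPKM in the I/R libraries. In both, Sham 3 exceeded I/R 3. Without those libraries they were 1.73 and 1.17 higher with adjusted p of 0.046 and 0.024 in limma. Ccr2, which marks recruited monocytes, stood at 0.77, 3.57 and 1.65 against 7.53, 6.89 and 3.44 FPKM, with I/R 3 just under Sham 2. Csf2ra, the receptor of GM-CSF, stood at 4.61, 8.02 and 6.51 against 22.3, 14.4 and 8.9 FPKM, with no overlap.

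In genes of acute-phase and secreted injury proteins Sham 3 often resembled I/R 1 and 2. Lcn2 (chr2:32384633-32388252 on GRCm38) encodes lipocalin-2, an iron-scavenging protein of neutrophils and injured epithelium. It stood at 5.01, 3.2 and 210.5 FPKM in the Sham libraries and 279, 447 and 3.04 FPKM in the I/R libraries. Serpina3n, a protease inhibitor of the acute phase with close copies beside it, stood at 7.36, 7.53 and 198 FPKM in the Sham libraries and 152, 243 and 7.04 FPKM in the I/R libraries. Timp1, the inhibitor of matrix metalloproteases, stood at 1.66, 6.56 and 71.5 FPKM in the Sham libraries and 201, 140.2 and 8.05 FPKM in the I/R libraries. Sham 3 lay far above Sham 1 and 2 in all 3 genes, and above I/R 1 for Serpina3n, while I/R 3 lay with Sham 1 and 2.

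The differences with all 6 libraries were 2.19 (SE 1.75) for Lcn2, 1.47 (SE 1.30) for Serpina3n and 2.49 (SE 1.32) for Timp1, with unadjusted p of 0.24, 0.28 and 0.085. Without Sham 3 and I/R 3 they were 6.14, 4.51 and 5.23, with adjusted p of 0.016, 0.00021 and 0.046 in limma. These p-values are a description, because in these genes the libraries left out lay nearer to the other group. Saa3, serum amyloid A made locally in tissue, stood at 0.46, 0.14 and 20.5 against 84.4, 132 and 0.14 FPKM, and haptoglobin (Hp), which binds free hemoglobin, at 0.58, 0.53 and 5.12 against 41.5, 25.5 and 2.6 FPKM. Hp kept I/R 3 above Sham 1 and 2 and below Sham 3.

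Of 23 acute-phase members 16 were tested, all 16 with a positive difference. Of these 3, Saa3 among them, passed the filter only with I/R libraries. At an unadjusted p under 0.05 2 were higher, and none lay above without overlap. The median was 0.84, 1.65 without Sham 3, 1.68 without I/R 3 and 2.54 without both. Of 13 members that differed by 1 or more between the pairs, I/R 3 lay nearer to Sham 1 and 2 in 12 and Sham 3 nearer to I/R 1 and 2 in 11. For the neutrophil markers the same count for Sham 3 was 2 of 16, as given above.

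**Figure D4:**
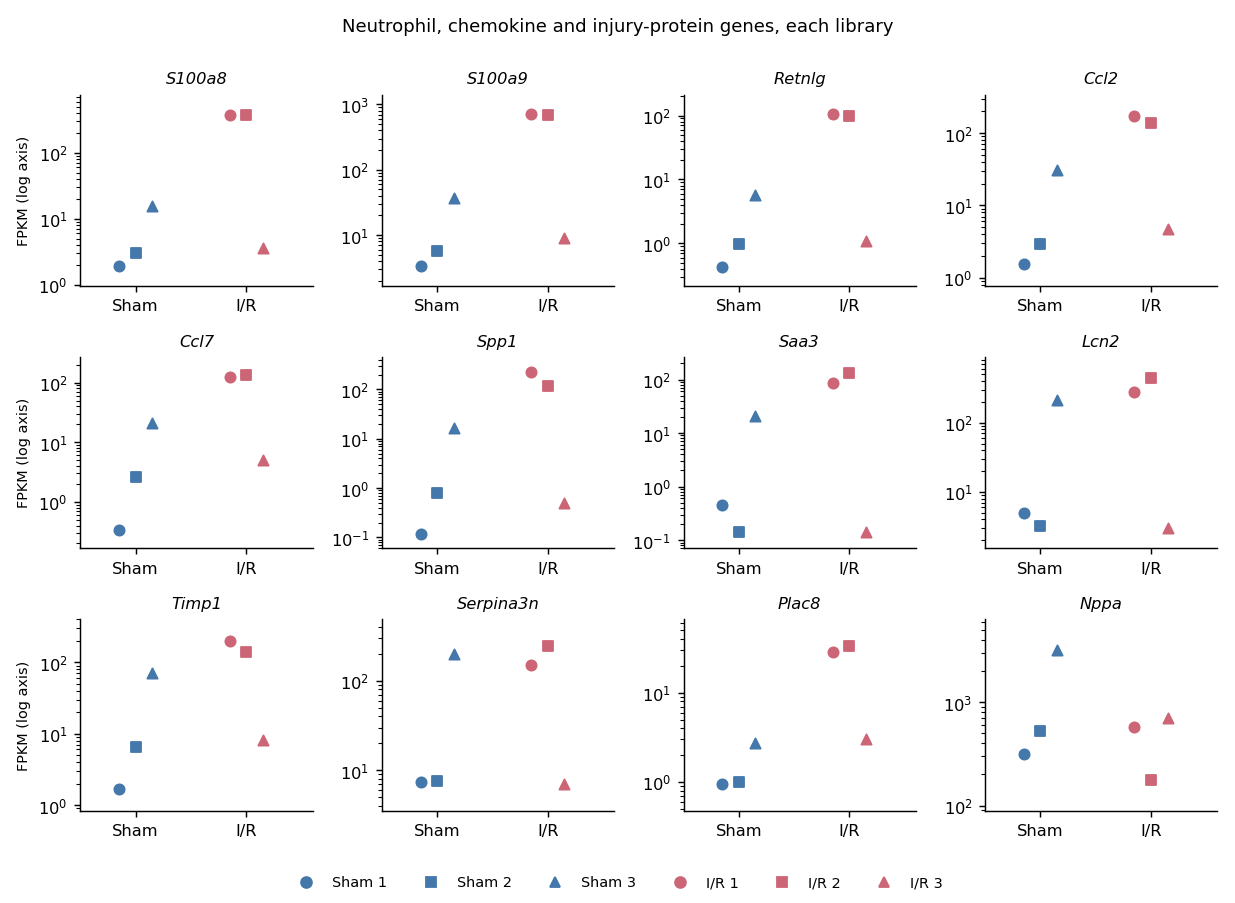
FPKM on a log axis of 12 neutrophil, chemokine, injury-protein and wall-stress genes in each library. I/R 1 and 2 (red circle and square) are high and I/R 3 (red triangle) is low in the first 11 panels, and Sham 3 (blue triangle) is high for Lcn2, Serpina3n and Timp1 and highest of all 6 for Nppa at 3157 FPKM.

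All 23 markers of recruited monocytes and macrophages had a positive difference, and 5 of them, Spp1 among them, passed the filter only with I/R libraries. The summed level was 185, 282 and 343 FPKM in the Sham libraries and 1300, 999 and 248 FPKM in the I/R libraries. Of the 23 genes 7 (30.4%) were higher at an unadjusted p under 0.05, beside 10.6% of all genes. Only 2 (8.7%) lay above without overlap, under the 18.8% of all genes. The median was 1.29, and 2.07 without Sham 3 and I/R 3. Plac8, a marker of freshly arrived monocytes, stood at 0.95, 1.01 and 2.76 FPKM in the Sham libraries and 28.4, 33.3 and 3 FPKM in the I/R libraries, a difference of 2.70 (SE 0.74). It was the largest increase among genes without overlap, although I/R 3 exceeded Sham 3 only slightly. Fcgr1, the high-affinity antibody receptor CD64, stood at 1.21, 3.18 and 2.59 against 9.83, 10.8 and 3.3 FPKM. Spp1, which encodes osteopontin and is made by macrophages of injured heart, stood at 0.12, 0.81 and 16.7 FPKM in the Sham libraries and 228, 119 and 0.5 FPKM in the I/R libraries, high in I/R 1 and 2, lower in Sham 3 and lowest in Sham 1.

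Further leukocyte genes without overlap were among the largest increases. Ncf4, a subunit of the NADPH oxidase that makes the oxidative burst, stood at 1.7, 2.17 and 1.72 against 12.8, 7.06 and 3.85 FPKM. Cd53, a tetraspanin of leukocytes, stood at 5.2, 8.19 and 6.08 against 30.6, 26.4 and 8.8 FPKM, Clec4n, the fungal sensor dectin-2, at 1.9, 2.69 and 3.39 against 23, 21.8 and 4.05 FPKM, and Cytip, an adhesion regulator of lymphocytes, at 0.37, 1.55 and 0.96 against 7.28, 3.93 and 2.04 FPKM. In all 4 genes I/R 3 was the lowest I/R library, well below I/R 1 and 2. Ifitm1, an interferon-induced membrane protein, stood at 10.2, 6.15 and 9.6 against 139.7, 96.9 and 9.78 FPKM, with I/R 3 within the Sham range.

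Resident macrophages and lymphocytes showed less. The 16 resident macrophage markers summed to 616, 688 and 401 FPKM in the Sham libraries and 765, 727 and 615 FPKM in the I/R libraries, a range that overlapped, lowest in Sham 3. The median difference was 0.37, 0.15 without Sham 3 and 0.22 without both Sham 3 and I/R 3. Mrc1, the mannose receptor, was the 1 member without overlap, at 10, 10.9 and 6.26 against 17.2, 15 and 11.3 FPKM. Only 2 of 15 T and NK cell markers and 4 of 10 B cell markers passed the filter. Summed levels of the B cell list were 19.2, 31.2 and 4.31 FPKM in the Sham libraries and 11.7, 13.7 and 30.7 FPKM in the I/R libraries, highest in Sham 2 and I/R 3 and lowest in Sham 3. The MHC class II gene H2-Eb1, which B cells express, was highest and lowest in the same libraries, at 69.5, 314 and 33.7 against 52.5, 62.6 and 214 FPKM.

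Of 23 genes of MHC and antigen presentation 22 had a positive difference and 4 (17.4%) lay above without overlap, close to the 18.8% of all genes. None did so under median-ratio scaling. The median of 0.47 was 0.07 without Sham 3 and I/R 3. Psmb8, a subunit of the immunoproteasome, stood at 24.4, 42.6 and 16.7 against 44.6, 45.2 and 49.6 FPKM, and B2m, the light chain of class I, at 435, 651 and 258 against 558, 604 and 802 FPKM, highest in I/R 3 and lowest in Sham 3.

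Among 18 complement genes 16 had a positive difference and 4 (22.2%) were higher at an unadjusted p under 0.05, beside 10.6% of all genes. Above without overlap lay 4 (22.2%), close to the 18.8% of all genes. Under median-ratio scaling 1 of 18 lay above and 1 below, where 9.7% of all genes lay above and 10.2% below. The median was 0.37, and 0.23 without Sham 3. Cfb, factor B of the alternative pathway, stood at 2.14, 2.02 and 1.06 FPKM in the Sham libraries and 4.47, 5.92 and 2.27 FPKM in the I/R libraries. The receptor gene C5ar1 of neutrophils and monocytes stood at 4.29, 3.6 and 4.24 against 20.3, 15.8 and 3.69 FPKM and followed I/R 1 and 2 only. C3 stood at 52.5, 62.6 and 39.7 against 81, 82.8 and 54.8 FPKM, with I/R 3 within the Sham range.

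Genes of the matrix and its crosslinking include the fibrillar collagens that fibroblasts lay down. Of 33 tested 29 had a positive difference and 7 (21.2%) were higher at an unadjusted p under 0.05, beside 10.6% of all genes. Above without overlap lay 9 (27.3%), beside 18.8% of all genes. Under median-ratio scaling 3 of 33 lay above, close to the 9.7% of all genes. The median was 0.39, and 0.24 under that scaling. Col1a1, the main chain of fibrillar collagen I, stood at 21.9, 34.7 and 32.4 FPKM in the Sham libraries and 60, 44.8 and 38 FPKM in the I/R libraries. Col3a1, collagen III, stood at 54.9, 137 and 65 FPKM in the Sham libraries and 188, 181 and 129 FPKM in the I/R libraries, where Sham 2 exceeded I/R 3. Loxl2, which crosslinks collagen, stood at 6.26, 8.79 and 7.44 against 16.4, 11.3 and 10.6 FPKM, and Fbn1, which encodes the microfibril protein fibrillin, at 8.8, 13.2 and 13.8 against 28, 21.2 and 14.4 FPKM. Fn1, fibronectin, stood at 17.1, 21 and 27.3 against 76, 60.4 and 21 FPKM, with only I/R 1 and 2 high.

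Of 32 matricellular proteins and matrix proteases 4 (12.5%) lay above without overlap, under the 18.8% of all genes. Of the 32 genes 8 passed the filter only with I/R libraries. Ctss, a cathepsin of macrophages that cuts elastin, stood at 16.7, 40.9 and 21.9 FPKM in the Sham libraries and 73.5, 66.9 and 42.3 FPKM in the I/R libraries, a difference of 1.23 (SE 0.32). Fstl1, a secreted glycoprotein made by the epicardium and by injured heart muscle, stood at 40.3, 41.4 and 34.4 against 77.5, 54.7 and 44.8 FPKM. Ccn2, the connective tissue growth factor, had the lowest difference, at 45.1, 28.5 and 127 against 84.4, 32 and 28.5 FPKM, with Sham 3 the highest library.

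Markers of fibroblasts did not separate the groups as a list. The 15 general markers had a median of 0.18, and -0.04 without Sham 3 and I/R 3, with sums of 1900, 2180 and 1850 FPKM in the Sham libraries and 2080, 1790 and 2180 FPKM in the I/R libraries. Ddr2, a collagen receptor, and Col1a1 were the 2 without overlap, Ddr2 at 3.45, 4.08 and 2.43 against 7.73, 6.15 and 4.97 FPKM. Of the 13 markers of activated fibroblasts none lay above without overlap: the periostin gene Postn stood at 15.4, 20.2 and 20.4 against 36.4, 18.6 and 25.2 FPKM and the tenascin C gene Tnc at 0.31, 0.52 and 3.17 against 17.2, 5.65 and 0.75 FPKM. Tnc was high in I/R 1 and 2 and lower in Sham 3.

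Genes of fatty acid uptake and oxidation lay below Sham in large part. Mitochondria take up fatty acids through the carnitine shuttle and cut them down by β-oxidation, which supplies most of the energy of the heart at rest. Of 38 tested members 35 had a negative difference, 8 were lower and none higher at an unadjusted p under 0.05, and 18 (47.4%) lay below without overlap, against 3.6% of all genes. The median was -0.27, -0.18 without Sham 3, -0.24 without Sham 3 and I/R 3, and -0.42 with 20 below under median-ratio scaling, where 10.2% of all genes lay below.

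Ucp3 (chr7:100472990-100486432 on GRCm38), a mitochondrial carrier induced by fatty acids, stood at 63.3, 47.2 and 47 FPKM in the Sham libraries and 11.1, 16.3 and 20.3 FPKM in the I/R libraries. The means were 52.5 ± 9.36 FPKM in Sham and 15.9 ± 4.61 FPKM in I/R (mean ± SD, n = 3). The difference was -1.69 (SE 0.45) with an unadjusted p of 0.003 and an adjusted p of 0.378 in limma, and it ranged from -1.95 to -1.47 over the alternative settings. All 3 I/R libraries were under 21 FPKM and all 3 Sham libraries over 45 FPKM. Without Sham 3 and I/R 3 the difference was -1.95.

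Ehhadh, the bifunctional enzyme of peroxisomal β-oxidation, stood at 10, 5.82 and 12.2 FPKM in the Sham libraries and 4.04, 3.68 and 4.13 FPKM in the I/R libraries. Mlycd, which breaks down malonyl-CoA and so frees the carnitine shuttle, stood at 76.6, 69.5 and 111 FPKM in the Sham libraries and 53.4, 52.4 and 52.9 FPKM in the I/R libraries. Hadh, the third enzyme of the mitochondrial cycle, stood at 369, 341 and 373 FPKM in the Sham libraries and 256, 251 and 331 FPKM in the I/R libraries. In Ehhadh and Mlycd the 3 I/R libraries were alike and Sham 3 was the highest Sham library, and in Hadh I/R 3 was close to Sham 2.

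Cpt1a and Cpt1b encode the 2 gatekeepers of the carnitine shuttle in heart. Cpt1a stood at 23.4, 20.2 and 35.7 against 19.8, 17.9 and 17.2 FPKM and Cpt1b, the muscle form, at 228, 183 and 262 against 161, 176 and 179 FPKM. The trifunctional enzyme genes Hadha and Hadhb stood at 477, 414 and 581 against 339, 368 and 402 FPKM and at 1099, 1019.9 and 1186 against 843, 914 and 1003 FPKM. Sham 3 was the highest library for all 4 and Sham 2 the lowest of its group, just above the highest I/R library. Acot2, a thioesterase of mitochondria, stood at 41.4, 32.9 and 88.5 against 28.9, 30.8 and 29.1 FPKM, and without Sham 3 its difference was -0.31 in place of -0.72. The 1 member above without overlap was Fabp4, a fatty acid carrier of endothelium, at 817, 881 and 881 against 889, 939 and 1049.9 FPKM.

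Regulators of fuel use outside the list were among the largest decreases without overlap. Txnip, which curbs glucose uptake and is induced by glucose, stood at 504, 304 and 641 FPKM in the Sham libraries and 232, 185 and 155 FPKM in the I/R libraries, a difference of -1.29 (SE 0.37). Pik3ip1, an inhibitor of PI3 kinase, stood at 38.5, 28.1 and 33.6 FPKM in the Sham libraries and 21.3, 19.3 and 18.9 FPKM in the I/R libraries. Neither rested on Sham 3: without it the differences were -1.05 and -0.70. Pdk4, the kinase that shuts glucose carbon out of the mitochondria, stood at 355, 114 and 559.6 FPKM in the Sham libraries and 74.3, 134 and 75.4 FPKM in the I/R libraries and overlapped, as Sham 2 lay below I/R 2.

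Nuclear genes of the respiratory chain, which passes electrons to oxygen to make ATP, differed by less. Of 41 tested 34 had a negative difference, none was lower and 1 higher at an unadjusted p under 0.05, and 13 (31.7%) lay below without overlap. The median was -0.18, and -0.34 with 20 below under median-ratio scaling. Ndufa10 of complex I stood at 370.1, 299 and 327 against 267, 251 and 291 FPKM, and Atp5o of the ATP synthase at 1669, 1676 and 1455 against 1265, 1275 and 1433 FPKM, each with I/R 3 closest to Sham. The 1 higher gene was Cox6c of complex IV, at 1274, 1600.1 and 1255 against 1439.8, 1826 and 2049 FPKM, highest in I/R 3 and overlapping.

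Glycolysis and hypoxia genes were split by sign: 16 of 33 differences were positive and 17 negative, where 69.1% of all genes were positive. The median was -0.01 against 0.13 for all genes, and 0.06 without Sham 3 and I/R 3. Under median-ratio scaling it was -0.15, with 11 of 33 positive, 2 above and 6 below without overlap. Pgam1 stood at 35.6, 34.6 and 52.4 against 89.6, 72.7 and 51.5 FPKM and its muscle form Pgam2 at 903, 696 and 641 against 513, 446 and 672 FPKM. The lactate exporter Slc16a3 stood at 1.55, 1.13 and 4.01 against 26.5, 18.3 and 1.08 FPKM, high in I/R 1 and 2 alone, and the growth factor gene Vegfa at 36.5, 34.8 and 36.1 against 45.2, 47 and 52.2 FPKM, with no overlap.

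**Figure D5:**
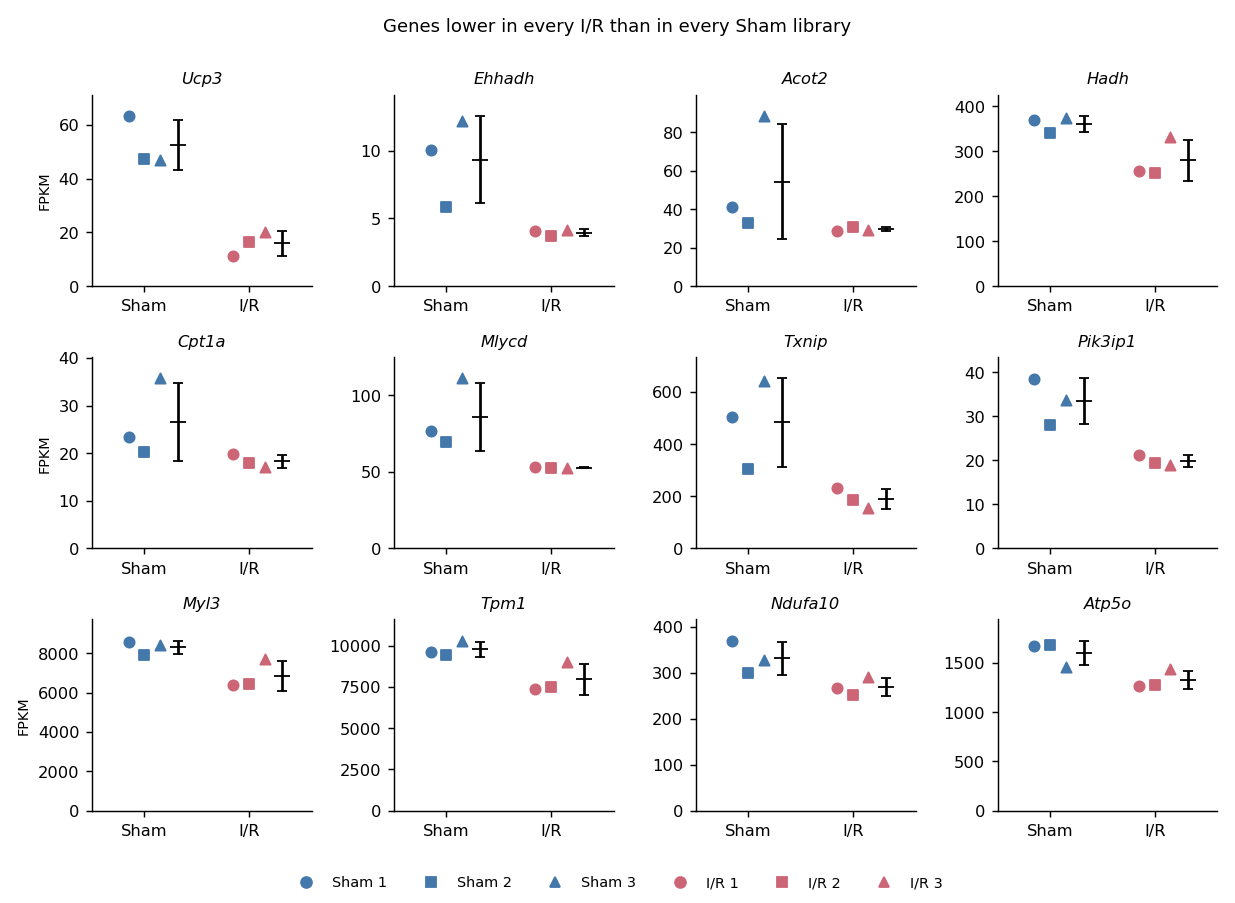
FPKM of 12 metabolic and contractile genes in each library, with the mean and SD (n = 3) of each group beside the points. The 3 I/R libraries lie below the 3 Sham libraries in every panel, by a wide gap for Ucp3 and by a narrow one for Acot2, Cpt1a and Atp5o.

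Genes of the sarcomere, the contractile unit of heart muscle, were lowest in I/R 1 and 2 for most of the members described here. Of 33 tested 26 had a negative difference, where 69.1% of all genes had a positive one. At an unadjusted p under 0.05 6 (18.2%) were lower, beside 1.04% of all genes. Below without overlap lay 6 (18.2%), beside 3.6% of all genes. The median was -0.28, and -0.43 with 10 below under median-ratio scaling, where 10.2% of all genes lay below. Myh6, given above, was lowest in I/R 1 and 2 and had a difference of -0.62 (SE 0.23), with I/R 3 just above Sham 2. Actc1, cardiac actin, stood at 8491, 6185 and 4974 FPKM in the Sham libraries and 2932, 2315 and 7007 FPKM in the I/R libraries. I/R 3 exceeded Sham 2 and Sham 3 there, and the difference was -0.82 with all 6 libraries and -1.48 without Sham 3 and I/R 3. Tpm1, tropomyosin, stood at 9587, 9450.1 and 10302 against 7342, 7505 and 8995 FPKM and Myl3, a ventricular light chain, at 8575, 7909.8 and 8392 against 6367, 6432 and 7701 FPKM, both without overlap.

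The 19 cardiomyocyte markers summed to 89300, 79700 and 81600 FPKM in the Sham libraries and 59400, 59400 and 79600 FPKM in the I/R libraries. The sum was lowest in I/R 1 and 2, where leukocyte sums were highest, and nearly equal in I/R 3 and Sham 2. Of the 19 markers 18 had a negative difference, with a median of -0.27 (-0.37 without I/R 3). The summed sarcomere list was also lowest in I/R 1 and 2, and Myh6, Myl3 and Actc1 belong to both lists. The fatty acid genes given above did not all follow the marker sum. Ehhadh and Mlycd were as low in I/R 3 as in I/R 1 and 2, while Hadh in I/R 3 was close to Sham 2. The part of the marker sum in the lower sarcomere and metabolic genes was not tested.

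Genes of calcium handling and ion channels, which set the heartbeat, seldom separated the groups. Of 35 tested none passed an unadjusted p of 0.05, and 2, both connexins, lay above without overlap: Gja1, the gap junction protein of ventricular muscle, at 62.6, 95 and 86.1 against 116, 121 and 120.3 FPKM, and Gja5 at 5.08, 3.77 and 4.08 against 7.44, 5.34 and 5.53 FPKM. Kcnip2, the channel subunit behind the transient outward current, stood at 88.5, 77 and 45.7 against 30.9, 28.6 and 70.4 FPKM, and Casq2, the calcium store protein, at 293, 267 and 282 against 196, 176 and 304 FPKM. In both, I/R 3 lay within the Sham range or above it.

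Natriuretic peptides, which heart muscle releases under wall stress, did not follow the labels. Nppa, which adult heart expresses chiefly in the atria, stood at 312, 529.9 and 3157 FPKM in the Sham libraries and 581, 178 and 707 FPKM in the I/R libraries. Nppb stood at 119, 169 and 753 FPKM in the Sham libraries and 541, 279.6 and 288 FPKM in the I/R libraries. Sham 3 was the highest library for both, far above all others for Nppa. The difference of Nppa was -0.94 (SE 0.72), with an unadjusted p of 0.22, and 0.04 without Sham 3. That of Nppb was 0.51 (SE 0.79), and 1.31 without Sham 3.

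The β-myosin gene Myh7, re-expressed in stressed adult ventricle, stood at 24.9, 59.5 and 362 against 176, 64.8 and 63.9 FPKM, and Ankrd1, a stretch-responsive protein of the sarcomere, at 496, 408 and 1105 against 924, 1006 and 523 FPKM, with Sham 3 highest in both. Of the other atrial markers, the light chain gene Myl4 stood at 3.32, 3.2 and 3.41 against 2.01, 1.53 and 2.56 FPKM, with Sham 3 level with Sham 1 and 2, and the transcription factor gene Tbx5 at 7.19, 5.09 and 12.3 against 4.89, 5.16 and 5.66 FPKM, highest in Sham 3. Gdf15, a stress cytokine, stood at 0.81, 1.52 and 4.21 against 3.14, 1.34 and 2.14 FPKM, and Sham 3 was its highest library as well. Of the 19 wall-stress genes tested, 11 had a positive and 8 a negative difference, none passed an unadjusted p of 0.05, and the median of 0.03 was -0.12 under median-ratio scaling and 0.24 without Sham 3 and I/R 3.

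Immediate early genes, which cells switch on within minutes of a stimulus, are tested here long after the operation. Of 28 tested 26 had a positive difference and 7 (25%) lay above without overlap, beside 18.8% of all genes. The median was 0.55 (0.41 under median-ratio scaling and 0.86 without Sham 3 and I/R 3). Of the 28 genes 4 passed the filter only with I/R libraries. Klf2, a flow-responsive factor of endothelium, stood at 35.4, 48.5 and 50.9 FPKM in the Sham libraries and 73.3, 68.2 and 72.5 FPKM in the I/R libraries, a difference of 0.67 (SE 0.16). The stress factor Atf3 stood at 1.13, 3.21 and 4.44 against 8.8, 7.11 and 7.42 FPKM and Nr4a1 at 2.5, 12.9 and 16.5 against 20.4, 18.6 and 27.9 FPKM, both low in Sham 1. Socs3, the feedback inhibitor of interleukin-6 signalling, stood at 1.3, 3.23 and 9.67 against 30.3, 28.8 and 2.86 FPKM and followed I/R 1 and 2.

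Glucocorticoid-responsive and circadian genes follow stress hormones and the time of day. In the 21 glucocorticoid-responsive genes the median was 0.14, 0 under median-ratio scaling, -0.21 without Sham 2 and 0.43 without Sham 3 and I/R 3. The list summed to 1800, 825 and 4290 FPKM in the Sham libraries and 3130, 3460 and 915 FPKM in the I/R libraries, highest in Sham 3 and low in I/R 3 and Sham 2. Klf15, a direct target of the glucocorticoid receptor, stood at 34.4, 18.7 and 32.5 against 20.6, 19 and 15 FPKM. The 19 clock genes had a median of -0.13, -0.21 without Sham 3, -0.045 without I/R 2 and 0.04 without Sham 1, where the sign turned. Per1, a clock gene that is also a glucocorticoid target, stood at 19.6, 12.4 and 21.7 against 12.1, 12.7 and 9.39 FPKM.

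Antioxidant genes, many of them targets of the factor NRF2, had a positive difference in 21 of 29 cases, beside 69.1% of all genes. The median was 0.15, 0.26 without Sham 3, 0.33 without I/R 3, 0.32 without both and 0.03 under median-ratio scaling. Of the 29 genes 3 (10.3%) lay above without overlap, under the 18.8% of all genes. None lay above and 6 below under median-ratio scaling, where 9.7% of all genes lay above and 10.2% below. Among the 3 were thioredoxin (Txn1) at 42.8, 56.1 and 54.8 against 91.7, 82.8 and 57.1 FPKM and peroxiredoxin 1 (Prdx1) at 130.1, 147 and 135 against 166, 178 and 169 FPKM. Ftl1, the ferritin light chain that stores iron, stood at 676, 853 and 669.9 against 1375, 1247 and 731 FPKM, with I/R 3 within the Sham range. Sesn1, a regulator of nutrient signalling, was below without overlap at 69.4, 42.8 and 75.7 against 41.2, 34.1 and 41.5 FPKM.

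The 15 markers of vascular endothelium, the lining of blood vessels, summed to 2830, 2430 and 2240 FPKM in the Sham libraries and 2970, 2720 and 2750 FPKM in the I/R libraries, with a median of 0.23, 0.13 without Sham 3, the lowest library, 0.12 without both Sham 3 and I/R 3, and 0.08 under median-ratio scaling. Of these 4 (26.7%) lay above without overlap, beside 18.8% of all genes, and none under median-ratio scaling, where 9.7% of all genes did. At an unadjusted p under 0.05 1 of the 15 (6.67%) was higher, beside 10.6% of all genes. The adhesion molecule gene Pecam1 stood at 112, 100.3 and 89 against 122, 108 and 98.8 FPKM. Rgs5, a marker of pericytes, stood at 118, 137 and 75 against 152, 165 and 183 FPKM, above without overlap and lowest in Sham 3. The 14 markers of pericytes and smooth muscle had a median of 0.12, and -0.01 without Sham 3 and I/R 3. Above without overlap lay 3 (21.4%), close to the 18.8% of all genes. Under median-ratio scaling none did, 7 of 14 were positive and the median was 0.001. The lymphatic marker Pdpn, which injured fibroblasts and macrophages also express, stood at 2.75, 3.59 and 7.41 against 33.1, 23.4 and 3.42 FPKM, and Aldh1a2, which the activated epicardium uses to make retinoic acid, at 2.85, 4.21 and 11.2 against 33, 33.1 and 3.52 FPKM. Only I/R 1 and 2 were high in the last 2. Of the 9 lymphatic and endocardial markers, Pdpn included, 4 had a positive and 5 a negative difference. Of the 10 epicardial and mesothelial markers, Aldh1a2 included, only 2 were high enough to be tested, so no direction of that list is given. The platelet chemokine Pf4 stood at 54.2, 76.7 and 44.4 against 135, 161 and 68.5 FPKM. As a list, the 6 platelet markers tested had no common direction, with 3 positive and 3 negative differences. Their median was 0.10, and -0.26 without Sham 3 and I/R 3.

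Several genes with the smallest p values belong to none of these lists. Tmem116, a membrane protein, was lower at 7.46, 7.18 and 8.66 FPKM in the Sham libraries and 3.49, 2.47 and 4.04 FPKM in the I/R libraries, a difference of -1.03 (SE 0.17) with an unadjusted p of 5.6e-05, and -1.08 without Sham 3 and I/R 3. Nab1, a corepressor of EGR factors, stood at 4.95, 5.25 and 4.73 FPKM in the Sham libraries and 9.83, 10.1 and 8 FPKM in the I/R libraries. Faim, an inhibitor of Fas-driven apoptosis, stood at 3.62, 4.75 and 3.5 FPKM in the Sham libraries and 8.38, 9.84 and 7.94 FPKM in the I/R libraries. Lrrc8c, a subunit of the volume-regulated anion channel, stood at 5.78, 5.93 and 6.04 FPKM in the Sham libraries and 10.3, 11.3 and 8.69 FPKM in the I/R libraries. None of the 4 overlapped between the groups, and I/R 3 lay nearer to I/R 1 and 2 than to Sham in each.

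Krr1, a ribosome assembly factor, stood at 3.96, 3.36 and 3.55 against 5.94, 6.03 and 5.72 FPKM, with 3 alike libraries in each group. Nme1, a nucleoside diphosphate kinase, stood at 6.57, 2.5 and 5.59 against 20.1, 19.3 and 8.99 FPKM, and Lpp, an adhesion protein, at 2.06, 2.06 and 2.27 against 3.45, 14.8 and 6.51 FPKM. Prps1l3, at 3.53, 2.83 and 2.83 against 4.9, 5.86 and 4.73 FPKM, and Rps27rt, at 6.07, 6.54 and 9.53 against 16.2, 25.2 and 20.5 FPKM, are copies of other genes, so reads may be shared with those. Scgb3a1, a secreted protein of airway epithelium, stood at 0.31, 0 and 1 against 5.59, 11.8 and 1.21 FPKM, with 0 in Sham 2. AL645861.1, a gene known here only by its clone name, stood at 4.74, 1.22 and 0 against 5.91, 5.32 and 4.86 FPKM.

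Among the largest decreases without overlap, Aldh1a1, an enzyme of retinoic acid synthesis, stood at 27.9, 20.4 and 19.4 FPKM in the Sham libraries and 10.7, 7.81 and 18.1 FPKM in the I/R libraries, with I/R 3 close to Sham 3. Cited2, a brake on HIF-1, stood at 30.3, 22.6 and 36.6 FPKM in the Sham libraries and 18.3, 16.4 and 14.7 FPKM in the I/R libraries. Angptl7, a secreted angiopoietin-like protein, stood at 7.76, 2.6 and 1.17 against 0.63, 0.18 and 1.03 FPKM, where Sham 3 was near I/R 3. The other decreases were Ccdc73 at 8.77, 6.74 and 7.23 against 1.83, 5.11 and 3.66 FPKM, Wnk2, a kinase of the WNK family, at 20, 10.4 and 14.2 against 7.57, 7.12 and 9.92 FPKM, and Eya2, a transcriptional coactivator, at 3.69, 2.83 and 2.2 against 1.29, 0.89 and 1.9 FPKM. Abhd1 and Chrna2, at 2.89, 1.61 and 6.09 against 1.15, 1.29 and 1.57 FPKM and at 1.25, 1.04 and 2.61 against 0.37, 0.53 and 0.64 FPKM, were highest in Sham 3.

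Of the 56 genes called without Sham 3 and I/R 3, several of the 52 higher ones are described above. Xbp1, the transcription factor that the unfolded protein response splices into its active form, was also among them, at 33.9, 40.5 and 50.8 against 87.5, 88.6 and 38.3 FPKM, and was chosen, as were the predicted genes below, after its values were seen. The 4 lower ones were Lrtm1, Aqp8 and the predicted genes Gm48789 and Gm49477. Lrtm1, a membrane protein of heart muscle, stood at 40, 43.7 and 14.4 FPKM in the Sham libraries and 18.9, 16.6 and 38.5 FPKM in the I/R libraries, and the water channel gene Aqp8 at 2.82, 2.52 and 0.4 FPKM in the Sham libraries and 0.72, 0.6 and 2.49 FPKM in the I/R libraries. In both, Sham 3 lay with I/R 1 and 2 and I/R 3 with Sham 1 and 2. Their differences were -1.20 and -1.14 in that fit, with adjusted p of 0.046 and 0.043 in limma, and -0.34 and -0.32 with all 6 libraries. Gm48789 stood at 62.8, 74.9 and 0 against 0, 0 and 29.4 FPKM and Gm49477 at 16.1, 20 and 6.81 against 8.19, 8.23 and 16.6 FPKM, in the same order of libraries.

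The difference between I/R and Sham on normal water was also tested against the same difference on B12, as an interaction over all 12 libraries. None of 13001 genes was called, the smallest adjusted p in limma was 0.387, and 1595 genes had an unadjusted p under 0.05.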

How the data were processed

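RNA of 12 mouse heart libraries was sequenced, 3 in each of 4 groups. Per the submitters' processing notes the authors aligned reads with HISAT2 to mm10 and quantified them with StringTie. Versions, annotation and the handling of shared reads are not given in the sources used here. The authors deposited FPKM, which is scaled to library size and transcript length, so a few very abundant genes can shift all others. Of 55487 gene identifiers 55227 were found in GENCODE M21 (GRCm38), which gave coordinates.

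Genes with at least 1 FPKM in at least 3 of the 12 libraries were kept. Log2(FPKM + 1) was fitted with limma 3.58.1 (R 4.3.3, eBayes with trend) over the 4 groups, and Benjamini-Hochberg adjustment ran over 13001 genes. The fit was tested on simulated data. The members of 42 gene lists and the groups compared were chosen with earlier results of these data known. Named genes were the 15 with the smallest p, the 15 largest increases and decreases at an unadjusted p under 0.05 without overlap, in each list the 4 genes of smallest p, the largest and smallest difference and any gene without overlap, up to 10 each way called without Sham 3 and I/R 3, a fixed list of injury genes and cell markers. Predicted genes were left out. Of the 345 genes the rule names, the text gives 164, and the rest are not reported here. Xbp1, Gm48789 and Gm49477 were named after their values were seen. A gene was without overlap where all 3 I/R libraries lay on 1 side of all 3 Sham libraries. Promoter windows came from RefSeq (GRCm38.p6). Alternatives were other pseudocounts (0.1 and 0.5), filters (none and 5 FPKM), scalings, the 6 libraries alone, library weights, a replicate block and leaving out each library.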

Additional observations from a re-analysis of the deposited data

How the results depend on the processing

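None of 13001 genes was called with all libraries. The count was 2 with the Sham and I/R libraries alone (Ccl27b and Gm10095, both lower), 4411 with library weights, 3052 with gene by gene weights, chosen after seeing the data, and 56 without both Sham 3 and I/R 3. It was 0 to 1 when single libraries were left out. Unadjusted p-values under 0.05, found for 1516 genes, numbered 1002 with a filter at 5 FPKM, 5960 and 5032 with the weights, and 696 to 2245 with single libraries left out. Genes without overlap, 2907, were 3415 to 5821 with single libraries of either group left out (Sham 2 out, 4836; Sham 3 out, 4679; I/R 3 out, 5821) and 8168 without both Sham 3 and I/R 3, where fewer libraries make overlap rarer. The cause of the other shifts was not tested.

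With the replicate number as a replicate block, 0 genes were called and 1637 had an unadjusted p under 0.05. The numbers did not pair the libraries: the deviations of same-numbered libraries correlated at -0.175, -0.158 and -0.412, and at 0.01 on average over 18 pairs of all 4 groups.

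Of 169 genes named, the difference took the opposite sign in at least 1 of 26 settings for 11. With single libraries left out, the difference of Nppa ranged from -1.63 to 0.041, of Ccn2 from -0.84 to 0.24, of Nppb from -0.020 to 1.31, of Myh7 from -0.70 to 1.20, of Gdf15 from -0.22 to 0.55, of H2-Eb1 from -0.73 to 0.86, of Mx2 from -0.15 to 0.11, of Bcl2l1 from -0.65 to 0.071 and of Fkbp5 from -0.96 to 0.53. The sign turned without Sham 3 for Nppa, Ccn2, Bcl2l1 and Fkbp5, without I/R 3 for Bcl2l1, Fkbp5 and Mx2, without Sham 1 for Nppb, Myh7 and Gdf15, without Sham 2 for Myh7, H2-Eb1 and Mx2, without I/R 1 for Myh7, Gdf15 and H2-Eb1, and without I/R 2 for H2-Eb1. Without both Sham 3 and I/R 3 the differences of Bcl2l1, Ccn2 and Fkbp5 were 0.36, 0.53 and 1.11. With library weights those of Bcl2l1, Fkbp5 and Mx2 were 0.049, 0.34 and 0.057, and gene by gene 0.046, 0.35 and 0.028. Median-ratio scaling gave -0.016 for Myh7 and -0.025 for Pecam1, and quantile normalization -0.057 for Gdf15 and 0.010 for Tnnt2.

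The estimated depth bears on counting error only, and differences of genes near 1 FPKM depend on the pseudocount. Of 37 list medians 12 changed sign in at least 1 setting.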
